A study of Saccharomyces cerevisiae with 4 samples.

Results

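The 41 genes described here encode enzymes of amino acid synthesis in budding yeast that belong to the general control of amino acid synthesis or feed its pathways, together with GCN4, which encodes the activator of that control. They were listed by function, with earlier results of these data known: 7 histidine genes, 8 lysine genes, 10 leucine, isoleucine and valine genes (called branched-chain below), 10 aromatic genes, 5 threonine genes and GCN4, out of 6348 ORFs listed in at least 1 library. Arginine and methionine genes were not among them. All 41 were listed in all 4 libraries and all 41 passed the filter on low counts, so that none is missing among the 5680 genes tested.

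General control works through Gcn4, a leucine zipper protein that binds upstream of genes of many amino acid pathways at once. When cells lack an amino acid, uncharged tRNA activates the kinase Gcn2, which phosphorylates the translation initiation factor eIF2. Overall translation then falls while translation of the GCN4 mRNA rises, through short upstream reading frames in its leader. A count of GCN4 reads therefore says little about the Gcn4 protein. Single pathways have regulators of their own in addition: Lys14 for lysine, Leu3 for leucine and its relatives, and Bas1 with Pho2 for histidine.

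Poly(A) RNA was sequenced from 2 haploid (MATa) and 2 tetraploid (MATaaaa) cultures of Σ1278b, a laboratory background that can form filaments, grown to mid-log phase at 30 °C in synthetic complete medium with 2% glucose. Each letter, A or B, marks a pair of 1 haploid and 1 tetraploid culture. Haploids and tetraploids alike carried the alleles his3::hisG and leu2::hisG, which block histidine and leucine synthesis, and ura3-52. Each ploidy was a single strain, so the 2 cultures repeat the culture and not the strain. The p-values of the main fit rest on the spread left after ploidy and pair are fitted, which edgeR estimates in part across genes. They do not closely follow a gene's own 2 pairs. HIS4, with log2 fold changes of tetraploid over haploid of 1.28 (pair A) and 0.27 (pair B), had a standard error of 0.18. LYS21, with 0.51 for both pairs, had 0.12. A call thus does not show that a gene changed alike across pairs. The shift common to both cultures of a pair is taken out, so the p-values do not measure the whole spread between cultures.

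The libraries held 3735445 (haploid A), 4133193 (tetraploid A), 3612527 (haploid B) and 4036830 (tetraploid B) reads on ORFs. The 41 genes took 1.10%, 1.33%, 1.07% and 1.28% of them. Their counts ran from 16 to 9642 reads, and 36 of them had at least 100 reads in all 4 libraries. Levels are given as CPM, that is, reads per fixed total of ORF reads, scaled with edgeR's TMM factors, which were 0.84, 1.03, 0.98 and 1.19 in the same order. They measure a gene's share of the poly(A) RNA of a culture, so a shift in the kinds of cells in it and a change in RNA per cell cannot be told apart.

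The labels were checked against mating type and strain genes. All 6 genes of MATa cells (STE2, STE6, MFA1, MFA2, BAR1, AGA2) were present in all 4 libraries, with a summed level of 896 to 1323 CPM in haploids and 249 to 288 CPM in tetraploids, and all 6 fell in tetraploids. Of 4 genes of MATalpha cells, MFALPHA1 had at most 2 reads and MFALPHA2 at most 13, while STE3 had 28 to 32 and SAG1 45 to 61. LEU2 was not listed in any library, HIS3 had 16 to 43 reads, and URA3, which carries the ura3-52 allele, had 25911 to 35557. URA3 thus stood at 6089 to 10090 CPM, above each of the 41 genes, and fell in tetraploids (log2 fold change -0.63 ± 0.13, edgeR adjusted p = 0.00914). The labels do not account for this level, and its source was not tested. Counts of reads inside an ORF do not show whether the gene works.

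Most of the lysine genes and some of the histidine genes rose in tetraploids, while branched-chain and threonine genes and GCN4 passed the test in neither direction. The ploidies were set against each other in edgeR by its quasi-likelihood test, with pair as a block, and a gene was called at a Benjamini-Hochberg adjusted p under 0.05 over all 5680 genes. Of the 41 genes, 10 rose, or 24.4% of them, against 2.52% of all genes tested. None of the 41 fell, against 5.35% of all genes tested. At an unadjusted edgeR p under 0.05, 13 of the 41 were higher, against 10.6% of all genes tested, and 3 (LEU1, TRP1 and THR1) were lower, against 14.2%. limma-voom called 11 higher and LEU1 lower, and DESeq2 called 3 higher and 0 lower. With total counts in place of the TMM factors, 19 of the 41 were called higher and 0 lower, on a scale where the median over all genes was 0.30.

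The genes that rose were 6 of 8 lysine genes (LYS1, LYS2, LYS4, LYS12, LYS20, LYS21), 3 of 7 histidine genes (HIS1, HIS4, HIS6) and 1 of 10 aromatic genes (ARO3). Their log2 fold changes of tetraploid over haploid lay between 0.51 and 0.83. The median over the 41 genes was 0.05, beside 0.01 over all genes tested, and the 41 values ranged from -0.40 (HIS3) to 0.83 (LYS1). In the main fit, then, the genes as a group were centred near no change, and the calls were those of a minority among them. By pair, their median was 0.26 for pair A and 0.04 for pair B, beside 0.0075 and 0.0019 over all genes tested. With offsets for GC content and coding length, chosen after seeing the data, the median of the 41 genes was 0.17, beside 0.013 over all genes tested. Both tetraploid libraries lay above both haploid libraries in 17 of the 41 genes (41.5%), against 21.9% of all genes tested. The reverse order held in 4 (HIS2, LEU1, ILV5 and THR1), against 20.5% of all genes tested.

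These calls rested on the pairing of the cultures. Without the block, edgeR called 0 of the 41 genes in either direction, against 4 higher and 18 lower among all 5680 genes tested. The edgeR adjusted p of the 10 genes lay between 0.336 and 0.530 there. At an unadjusted p under 0.05 that fit had 10 of the 41 higher, against 3.61% of all genes tested, and 0 lower, against 5.6%. With no filter on low counts, only LYS12 of the 41 was called (edgeR adjusted p = 0.0474), against 12 higher and 87 lower among 6348 genes. Each library was also left out in turn, in fits without the block. The log2 fold changes of the 10 genes then ran from 0.27 (LYS4 without tetraploid A) to 1.24 (HIS4 without tetraploid B). Such fits leave 1 library at a ploidy, so they are a weak check of the calls.

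**Figure D1:**
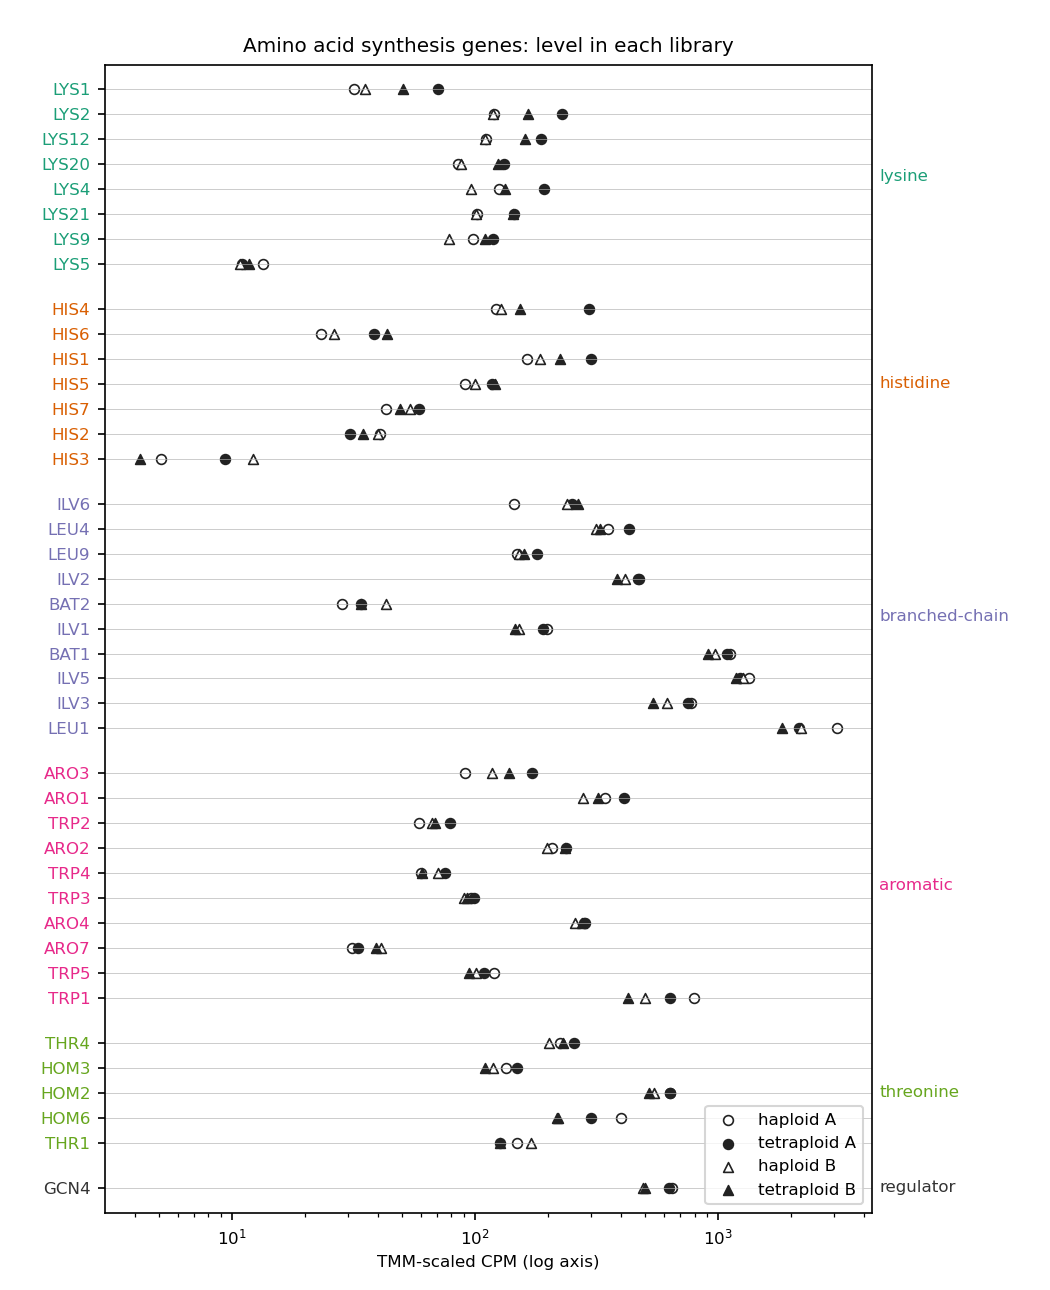
Level of each of the 41 genes in each library, in TMM-scaled CPM on a log axis, with haploid libraries as open and tetraploid libraries as filled symbols, circles for pair A and triangles for pair B, and genes grouped by pathway. The filled symbols lie to the right of the open ones in 7 of 8 lysine genes, and levels span 4.18 CPM (HIS3 in tetraploid B) to 3073 CPM (LEU1 in haploid A).

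Lysine is made in yeast from 2-oxoglutarate by the aminoadipate route, which differs from the route of bacteria and plants. Of its 8 genes, 7 were above 0 in both pairs. Called higher were 6 (75.0%) and called lower none, against 2.52% and 5.35% of all genes tested. The median log2 fold change was 0.56, or 0.62 for pair A and 0.50 for pair B. The 8 genes summed to 686 and 636 CPM in the haploid libraries of pairs A and B, and to 1082 and 899 CPM in the tetraploid libraries.

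The first step is shared by the homocitrate synthases encoded by LYS20 (YDL182W) and LYS21 (YDL131W). LYS20 had 267, 558, 307 and 594 reads in haploid A, tetraploid A, haploid B and tetraploid B, or 85.1, 131, 87.1 and 124 CPM. LYS21 had 320, 617, 354 and 684 reads in that order, or 102, 145, 101 and 143 CPM. The haploid libraries of each gene differed by little and lay well apart from the tetraploid libraries. LYS20 rose 1.48-fold (log2 fold change 0.57 ± 0.13 SE, edgeR adjusted p = 0.0130). LYS21 rose 1.42-fold (0.51 ± 0.12, edgeR adjusted p = 0.0205), by 0.51 in each pair.

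LYS4 (YDR234W) encodes homoaconitase and LYS12 (YIL094C) homoisocitrate dehydrogenase, the mitochondrial enzymes of the following steps. LYS4 had 392, 816, 338 and 636 reads, or 125, 192, 95.9 and 133 CPM. Its tetraploid B library lay only slightly above haploid A, and its levels were lower in pair B than in pair A at both ploidies. It rose 1.46-fold (0.55 ± 0.12, edgeR adjusted p = 0.0146). Its log2 fold change was 0.27 without tetraploid A and 0.38 without haploid B, in fits without the block. LYS12 had 349, 791, 387 and 769 reads, or 111, 186, 110 and 161 CPM, with no overlap between ploidies. It rose 1.56-fold (0.64 ± 0.13, edgeR adjusted p = 0.0051).

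LYS2 (YBR115C) encodes aminoadipate reductase, and LYS5 (YGL154C) the transferase that attaches the phosphopantetheine arm that Lys2 needs. LYS2 had 376, 973, 418 and 792 reads, or 120, 229, 119 and 166 CPM. It rose 1.63-fold (0.71 ± 0.14, edgeR adjusted p = 0.00456), the smallest adjusted p of the 41 genes. LYS5 had 42, 47, 38 and 56 reads, or 13.4, 11.04, 10.8 and 11.7 CPM. The ploidies overlapped, and the log2 fold change of -0.08 ± 0.24 did not pass the test (edgeR adjusted p = 0.872). It was the one lysine gene whose pairs differed in sign, with -0.28 for pair A and 0.12 for pair B.

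The last steps, through saccharopine, are those of the dehydrogenases encoded by LYS9 (YNR050C) and LYS1 (YIR034C). LYS9 had 97.8, 118, 78.1 and 110 CPM, with both tetraploid libraries above both haploid ones, but did not pass the test (0.39 ± 0.13, edgeR adjusted p = 0.0768). LYS1 had 100, 300, 124 and 242 reads, or 31.9, 70.5, 35.2 and 50.6 CPM. It rose 1.78-fold (0.83 ± 0.16, edgeR adjusted p = 0.00561), the largest fold of the 41 genes. Pair A gave 1.15 and pair B 0.52.

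**Figure D2:**
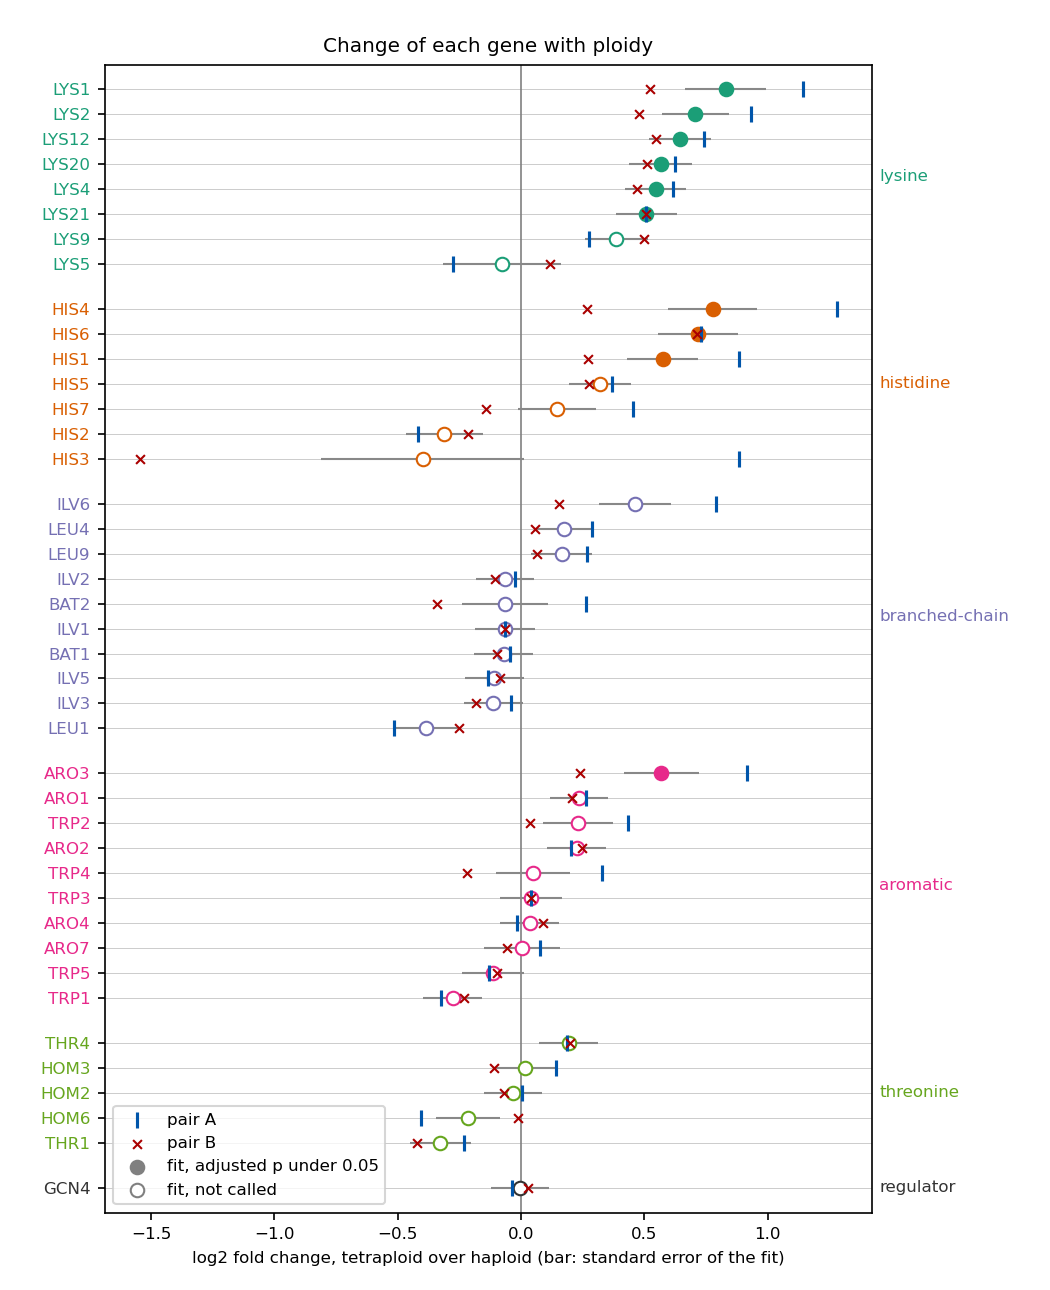
Log2 fold change of tetraploid over haploid for each of the 41 genes: circles with bars are the edgeR fit with its standard error, filled where the adjusted p was under 0.05, blue ticks are pair A and red crosses pair B. In the 6 lysine genes that rose, pair B lay between 0.47 and 0.55 and pair A between 0.51 and 1.15. In HIS1, HIS4 and ARO3 pair B lay between 0.24 and 0.27 and pair A between 0.88 and 1.28.

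Histidine synthesis starts from ATP and phosphoribosyl pyrophosphate. Of its 7 genes, 5 were above 0. Called higher were 3 (42.9%) and called lower none, against 2.52% and 5.35% of all genes tested. The median log2 fold change was 0.32, with 0.73 for pair A and 0.27 for pair B. The 7 genes summed to 488 and 545 CPM in the haploid libraries of pairs A and B, and to 851 and 628 CPM in the tetraploid libraries. The tetraploid A library thus stood farther from the haploid libraries than tetraploid B did.

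HIS1 (YER055C) encodes ATP phosphoribosyltransferase, the feedback-inhibited first enzyme. It had 512, 1280, 651 and 1068 reads, or 163, 301, 185 and 223 CPM. It rose 1.49-fold (0.58 ± 0.14, edgeR adjusted p = 0.0232), by 0.88 in pair A and 0.27 in pair B. Without tetraploid A the log2 fold change was 0.36, in a fit without the block.

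HIS4 (YCL030C), on chromosome 3, encodes an enzyme of several activities that act early and at the end of the pathway, and it is the classic reporter of general control. It had 382, 1258, 449 and 734 reads, or 122, 296, 127 and 153 CPM. The haploid libraries were close together and tetraploid A stood far above tetraploid B. It rose 1.71-fold (0.78 ± 0.18, edgeR adjusted p = 0.0150), by 1.28 (pair A) and 0.27 (pair B). In fits without the block, its log2 fold change was 0.30 without tetraploid A and 1.24 without tetraploid B. Over the 153 genes tested on chromosome 3 the median was 0.26, and HIS4 lay 0.52 above it.

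HIS6 (YIL020C) encodes the isomerase that follows. It had 73, 164, 93 and 207 reads, or 23.3, 38.5, 26.4 and 43.3 CPM, with tetraploid B the highest library. It rose 1.65-fold (0.72 ± 0.16, edgeR adjusted p = 0.0140), by 0.73 (pair A) and 0.71 (pair B). Of the 3 histidine genes that rose it was the only one whose pairs gave nearly the same value.

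The later enzymes did not pass the test. HIS7 (YBR248C), the glutamine-dependent synthase of the imidazole ring, had a log2 fold change of 0.15 ± 0.16 (edgeR adjusted p = 0.613) and HIS5 (YIL116W), the aminotransferase, 0.32 ± 0.13 (edgeR adjusted p = 0.123). HIS2 (YFR025C), the histidinol phosphatase, had 128, 130, 141 and 165 reads, or 40.8, 30.6, 40.0 and 34.5 CPM. Both tetraploid libraries lay below both haploid ones, with a log2 fold change of -0.31 ± 0.16 that did not pass (edgeR adjusted p = 0.231). HIS2 lies on chromosome 6, whose 111 tested genes had a median of -0.40, and its value lay 0.08 above that median. HIS3 (YOR202W), the dehydratase gene that is disrupted in these strains, had 16, 40, 43 and 20 reads, or 5.10, 9.40, 12.2 and 4.18 CPM. Its pairs were of opposite sign, 0.88 in pair A and -1.55 in pair B, and it had the widest standard error of the 41 genes (-0.40 ± 0.41, edgeR adjusted p = 0.591).

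The aromatic genes comprised the shikimate pathway and its branch to tryptophan. Of 10 genes, 8 were above 0, with a median log2 fold change of 0.04. Called higher was 1 and called lower none, against 2.52% and 5.35% of all genes tested. The summed level was 2086 and 1722 CPM in the haploid libraries and 2134 and 1751 CPM in the tetraploid libraries of pairs A and B, so that it differed more between pairs than between ploidies.

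ARO3 (YDR035W) and ARO4 (YBR249C) encode the DAHP synthases that open the shikimate pathway, the former inhibited by phenylalanine and the latter by tyrosine. ARO3 had 286, 732, 412 and 660 reads, or 91.2, 172, 117 and 138 CPM, with no overlap between ploidies. It rose 1.48-fold (0.57 ± 0.15, edgeR adjusted p = 0.0313), by 0.92 in pair A and 0.24 in pair B. ARO4 had 284, 280, 258 and 274 CPM and a log2 fold change of 0.04 ± 0.12 (edgeR adjusted p = 0.881). ARO1 (YDR127W), the pentafunctional enzyme of the middle of the pathway, and ARO2 (YGL148W), chorismate synthase, each had 0.23 ± 0.12, and neither passed (edgeR adjusted p = 0.236 and 0.256). Chorismate mutase, ARO7 (YPR060C), which leads to phenylalanine and tyrosine, was at 0.0031 ± 0.16.

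None of the tryptophan genes passed the test. TRP2 (YER090W) and TRP3 (YKL211C), the subunits of anthranilate synthase, had log2 fold changes of 0.23 and 0.04, TRP4 (YDR354W) had 0.05 and TRP5 (YGL026C), tryptophan synthase, -0.11. TRP1 (YDR007W), the tryptophan gene known to lie outside general control, had 2500, 2710, 1769 and 2047 reads, or 797, 637, 502 and 428 CPM. It was higher in pair A at both ploidies, and within each pair the tetraploid library was the lower one (-0.28 ± 0.12, edgeR adjusted p = 0.156).

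Branched-chain genes held most of the reads of the 41 genes. Of 10 genes, 3 were above 0, with a median log2 fold change of -0.06. None passed the test in either direction, against 2.52% called higher and 5.35% called lower of all genes tested. Their summed level was 7660 and 6341 CPM in the haploid libraries and 6764 and 5785 CPM in the tetraploid libraries of pairs A and B. Per kb of coding length, ILV5 (YLR355C), acetohydroxyacid reductoisomerase, had the highest mean level of the 41 genes at 1056 CPM per kb, followed by LEU1 (YGL009C) at 988.

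LEU1, isopropylmalate isomerase, had 9642, 9142, 7701 and 8788 reads, or 3073, 2148, 2186 and 1836 CPM. Haploid A stood apart, while tetraploid A and haploid B were close to each other. The log2 fold change was -0.38 ± 0.13 (edgeR adjusted p = 0.0742). It passed the threshold in limma-voom (adjusted p = 0.0339) and with DESeq2's size factors in edgeR (adjusted p = 0.0335), but not in the other settings, among them DESeq2 (0.0553), no filter (0.162) and no block (0.599). Its log2 fold change was -0.10 with total counts, and in fits without the block -0.13 without haploid A and -0.63 without haploid B. LEU2, the dehydrogenase gene of the next step, was disrupted and not listed.

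ILV6 (YCL009C) encodes the regulatory subunit of acetolactate synthase and ILV2 (YMR108W) its catalytic subunit. ILV6 had 453, 1064, 839 and 1268 reads, or 144, 250, 238 and 265 CPM. Haploid A was low and the other libraries were close together, and the log2 fold change of 0.46 ± 0.15 did not pass (edgeR adjusted p = 0.0625). It passed in limma-voom (adjusted p = 0.0456), with DESeq2's size factors in edgeR (0.0136), with total counts and no TMM factors (0.0183) and with at least 15 reads required in all 4 libraries (0.0243). It did not pass in DESeq2 (adjusted p = 0.152), with GC and length offsets (0.0820), with no filter (0.180) or without the block (0.608). In fits without the block its log2 fold change was 0.11 without haploid A and 0.83 without haploid B. ILV6 lies on chromosome 3 and was 0.20 above the median of that chromosome. ILV2 had a log2 fold change of -0.06 ± 0.12.

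The other branched-chain genes lay between -0.11 and 0.17. ILV1 (YER086W), threonine deaminase, was at -0.06, ILV3 (YJR016C), dihydroxyacid dehydratase, at -0.11, and ILV5 at -0.11. The isopropylmalate synthases LEU4 (YNL104C) and LEU9 (YOR108W) were both at 0.17. The transaminases BAT1 (YHR208W), which is mitochondrial, and BAT2 (YJR148W), which is cytosolic, were at -0.07 and -0.06.

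**Figure D3:**
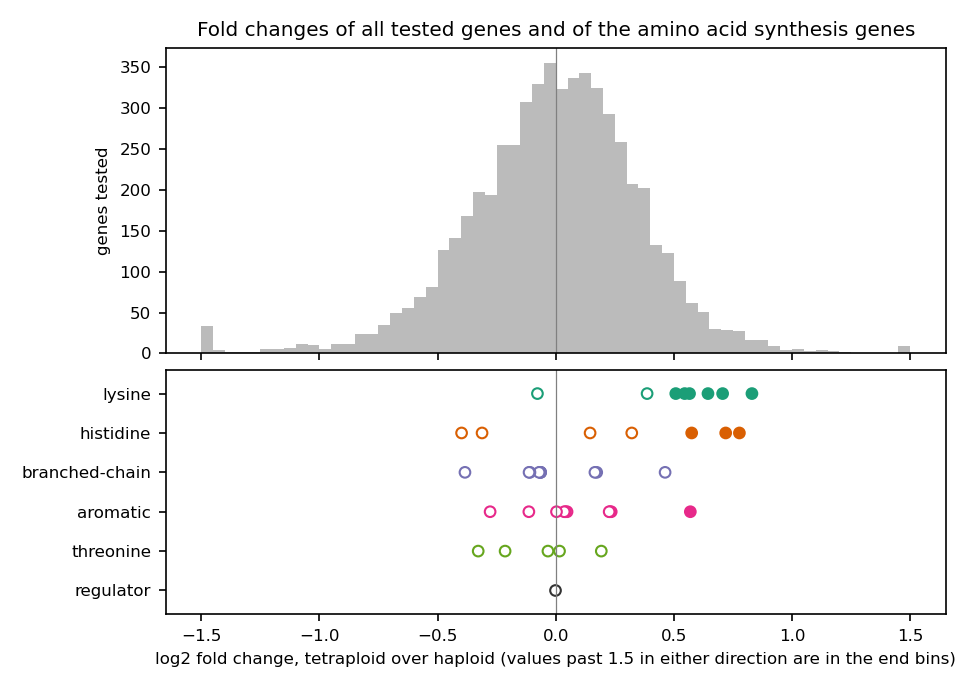
Top, histogram of the log2 fold changes of all 5680 genes tested, with values past the ends of the axis collected in the end bins. Bottom, the 41 genes by pathway on the same axis, filled where called: lysine genes have a median of 0.56 and branched-chain genes of -0.06, beside 0.01 for all genes.

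Threonine is made from aspartate by way of homoserine, which also leads to methionine. Of its 5 genes, 2 were above 0, with a median log2 fold change of -0.03. None passed the test in either direction, against 2.52% called higher and 5.35% called lower of all genes tested. THR4 (YCR053W), threonine synthase, had 703, 1085, 708 and 1104 reads, or 224, 255, 201 and 231 CPM. The log2 fold change was 0.19 ± 0.12 (edgeR adjusted p = 0.337), and 0.07 below the median of chromosome 3, on which it lies. THR1 (YHR025W), homoserine kinase, had 466, 538, 600 and 609 reads, or 149, 126, 170 and 127 CPM. Both tetraploid libraries were below both haploid ones, but the change of -0.33 ± 0.12 did not pass (edgeR adjusted p = 0.114).

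The genes upstream, shared with the branch to methionine, did not pass either. HOM3 (YER052C), aspartate kinase, was at 0.02 and HOM2 (YDR158W), the semialdehyde dehydrogenase, at -0.03. HOM6 (YJR139C), homoserine dehydrogenase, had 399, 301, 220 and 218 CPM. Its change of -0.21 ± 0.13 did not pass (edgeR adjusted p = 0.323), with -0.41 for pair A and -0.01 for pair B.

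GCN4 (YEL009C) mRNA was not detectably different between ploidies. It had 2023, 2676, 1729 and 2393 reads, or 645, 629, 491 and 500 CPM. The ploidies overlapped, and both libraries of pair A were above both of pair B. The log2 fold change was -0.0047 ± 0.12 (edgeR adjusted p = 0.986), and each pair gave a value close to 0, with -0.04 in pair A and 0.03 in pair B. Per kb of coding length its mean level was 669 CPM, higher than that of any of the 10 genes that rose, of which HIS1 had the highest mean at 244 CPM per kb.

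Several steps are shared by isozymes, and their relative levels per kb of coding length were compared within each library. LYS20 stood at 0.86, 0.93, 0.89 and 0.89 of LYS21 in haploid A, tetraploid A, haploid B and tetraploid B, so that the proportion hardly differed between libraries while both genes rose. LEU4 exceeded LEU9 by a ratio of 2.30 and 2.33 in the libraries of pair A and 2.01 and 2.00 in those of pair B. Within a pair this ratio was nearly the same at both ploidies. BAT1 exceeded BAT2 by 37.8, 30.5, 21.5 and 25.4, so that the ratio was lower in the tetraploid library of pair A and higher in that of pair B. ARO3 stood at 0.32 of ARO4 in the haploid and 0.61 in the tetraploid library of pair A, and at 0.45 and 0.50 in those of pair B. The log2 ratio of ARO3 to ARO4 was higher in tetraploids by 0.93 in pair A and 0.15 in pair B. None of these ratios was tested, and with 2 cultures per ploidy the differences between pairs limit what they show.

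**Figure D4:**
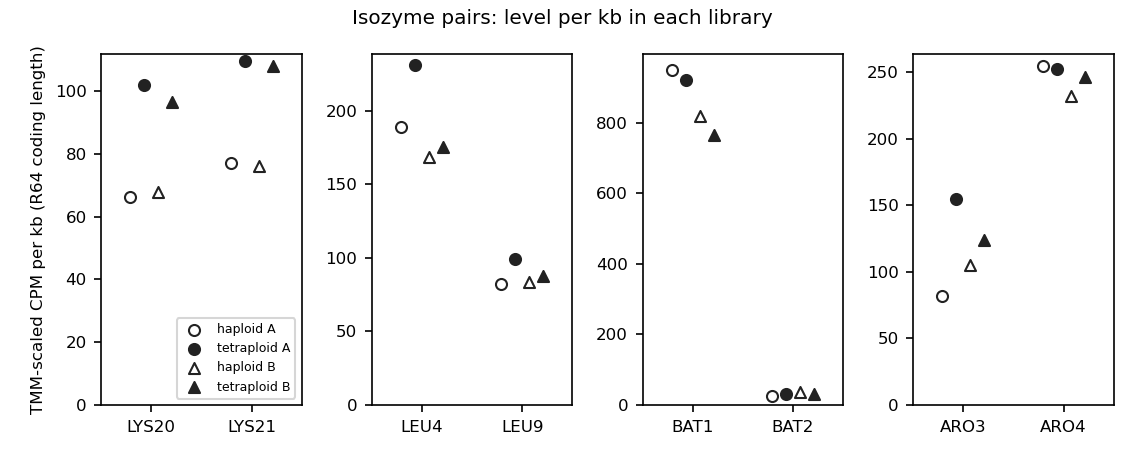
Level per kb of coding length, in TMM-scaled CPM per kb, of each isozyme pair in the 4 libraries, with open symbols for haploid and filled for tetraploid libraries, circles for pair A and triangles for pair B. LYS20 and LYS21 are both higher in the tetraploid libraries, while ARO3 moves and ARO4 stays between 258 and 284 CPM before division by its length.

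Most of the 41 genes were lower in pair B than in pair A, more of them in tetraploid than in haploid libraries. In the pair term of the same edgeR fit, 32 of 41 genes had a negative log2 fold change of pair B over pair A, with a median of -0.12. The share of all genes tested below 0 in this term was not computed. Haploid B lay below haploid A in 25 of the 41 genes, and tetraploid B below tetraploid A in 34. For the 7 histidine genes these counts were 1 and 4. The shares of all genes tested for these library counts were not computed either. None of these counts is thus read as particular to the 41 genes. Lower in pair B at an adjusted p under 0.05 were 4 genes, beside 6.34% of all genes tested: TRP1 (-0.62, edgeR adjusted p = 0.00423), HOM6 (-0.66, 0.00484), LYS4 (-0.46, 0.0298) and ILV3 (-0.41, 0.0434). None of the 41 was higher in pair B, beside 3.15% of all genes tested. GCN4 had -0.36 (edgeR adjusted p = 0.0677). In the 6 lysine genes that rose, the pair term ran from -0.46 (LYS4) to -0.02 (LYS21). These genes were picked by their ploidy term in the same fit, so its size is not compared with that of the pair term.

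Tetraploid A carried the highest level in 21 of the 41 genes (51.2%), against 18.9% of all genes tested. Among the 10 genes that rose, tetraploid A was the highest library in 9. These 10 were picked as higher in tetraploids, so their highest library was nearly bound to be a tetraploid one, and that share does not apply to them. The exception was HIS6, highest in tetraploid B. In pair B alone, which was part of the fit that called them, all 10 genes had a log2 fold change above 0. The values ran from 0.24 (ARO3) to 0.71 (HIS6), but 1 pair leaves no test. Whether the pairs differed in the size of a change could not be tested either, since the fit with such a term leaves no degrees of freedom.

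**Figure D5:**
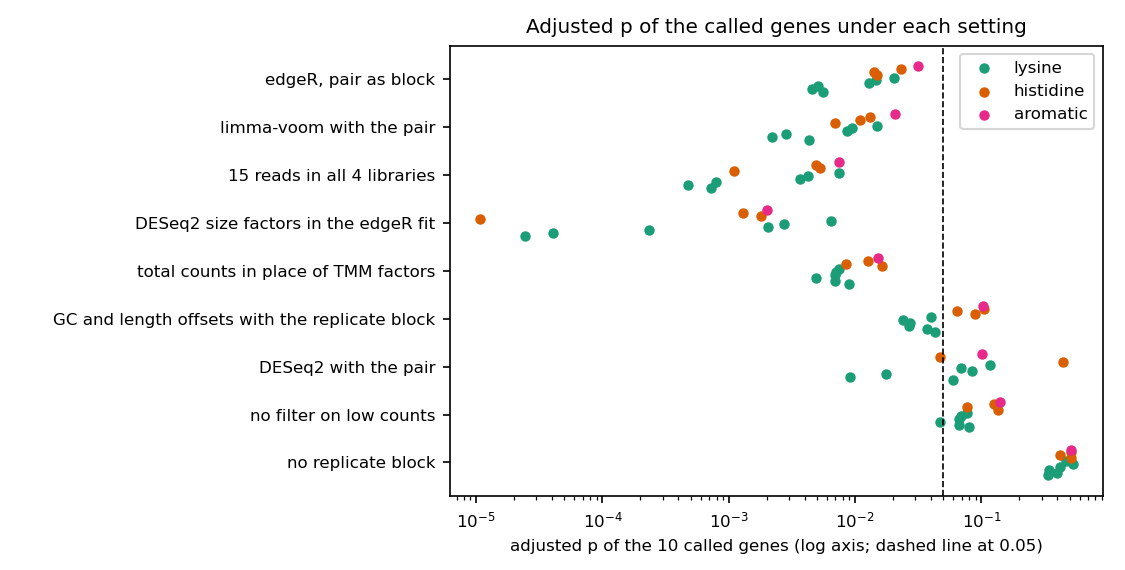
Adjusted p of the 10 genes that rose under edgeR with the pair as a block and under each other setting that kept all 4 libraries, on a log axis with the threshold of 0.05 dashed; HIS6 has no adjusted p in DESeq2 and is left out there. All 10 lie right of the line without the replicate block, and the 6 lysine genes lie left of it with GC and length offsets while the 4 others do not.

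With offsets for GC content and coding length in the fit with the block, an alternative chosen after seeing the data, the genes called were the 6 lysine genes, and HIS1, HIS4, HIS6 and ARO3 were not (edgeR adjusted p from 0.0640 to 0.105). The log2 fold changes of these 4 were 0.58, 0.86, 0.66 and 0.63 there, beside 0.58, 0.78, 0.72 and 0.57 without the offsets. DESeq2 with the pair kept HIS1, LYS2 and LYS12. The 10 genes had a log2 fold change above 0 in all 13 settings, the settings that left out a library included. They were picked by a fit of these same libraries, so the shared sign is no separate support for the calls.

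Arginine synthesis, which general control also governs, was set beside these genes from a separate list of 10. Of them 7 rose and none fell, against 2.52% and 5.35% of all genes tested. The median log2 fold change was 0.74, or 0.97 for pair A and 0.33 for pair B. Among those that rose were ARG4, argininosuccinate lyase (1.02 ± 0.14, edgeR adjusted p = 0.000198), and ARG1, argininosuccinate synthetase (0.75 ± 0.16, 0.00833). Both had the larger change in pair A, as had all of the 10 genes that rose but LYS21.

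The genes that act above Gcn4 and beside it did not pass the test. Of 8 genes of the general control kinase and the exchange factor eIF2B, 4 were above 0, with a median of 0.0031. None of the 8 was called by edgeR in either direction, against 2.52% higher and 5.35% lower of all genes tested. At an unadjusted edgeR p under 0.05, 1 was higher and 1 lower, against 10.6% and 14.2% of all genes tested. Of 7 further regulators (LEU3, LYS14, MKS1, BAS1, PHO2, GLN3 and PCL5) all 7 were above 0, beside 51.1% of all genes tested. Their median was 0.37. None of them was called by edgeR, and 3 were higher at an unadjusted p under 0.05, a threshold that 10.6% of all genes tested passed in that direction. LEU3 and LYS14 each had 0.45, and BAS1 had 0.55 ± 0.18 (edgeR adjusted p = 0.0648).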

How the data were processed

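For 4 poly(A) cDNA libraries, the authors aligned the reads by Bowtie to the genome of Σ1278b. They deposited, per library, whole-number counts of reads inside each ORF, without normalization. By the study's methods, unique mappings were used and reads on both strands were counted, so reads from overlapping or antisense transcripts cannot be told apart. No per-sample columns were left unused (0). An ORF not listed in a library was taken as 0.

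The analysis used R 4.3.3 with DESeq2 1.42.0, edgeR 4.0.16 and limma 3.58.1, and Python 3.11.15. A gene was tested if some library in each pair held 15 reads or more (5680 genes). Total counts were scaled by TMM, and ploidy and pair were fitted together by quasi-likelihood, since the study compares libraries within pairs. Same-lettered libraries deviated together (r = 0.52 across 5680 genes, which are not independent replicates). The biological coefficient of variation was 0.086 with the block and 0.18 without. A standard error is the log2 fold change divided by the square root of F. Pair values are ratios of TMM-scaled CPM.

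Group members and lists were chosen with earlier results of these data known. Described in full were GCN4, HIS3, every called gene, the highest and lowest gene of each pathway, and 4 isozyme pairs; from other lists, the 3 called genes with the smallest adjusted p, except a result that is not reported here. Names, coding lengths and GC content were taken from R64, an assembly of the strain S288C, which holds 5754 of 6348 listed ORFs and all 41 genes; no coordinates or sequences from it are given. Alternatives were no block, DESeq2, limma-voom, 2 other scalings, 2 other filters, GC and length offsets (chosen after seeing the data) and each library left out.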

Additional observations from a re-analysis of the deposited data

How the results depend on the processing

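The number of the 41 genes called higher was 10 with the replicate block and 0 without it. It was 3 in DESeq2 with the pair, 1 with no filter on low counts, 6 with GC and length offsets and the replicate block (chosen after seeing the data), 19 with total counts and no TMM factors, and 0 to 1 with each library left out. Those last fits had no replicate block, since 3 libraries with it leave no degrees of freedom, and they assume that the lone library varies like the others. limma-voom and DESeq2's size factors in edgeR each called 11 higher and 1 lower, LEU1. With total counts, the median of all genes moved to 0.30 and that of the 41 genes to 0.34; 24 of the 41 lay above the all-gene median there and in the TMM fit. All genes called went from 143 higher and 304 lower to 1168 and 115. Left-out libraries gave a median of the 41 genes between 0.014 and 0.22. The pair comparison called 4 genes, and 2 with total counts. GCN4 turned to 0.28 with total counts, 0.0049 with no filter, 0.0018 with at least 15 reads in all 4 libraries and 0.0066 with GC and length offsets, and lay between -0.19 and 0.20 with a library left out. With total counts LYS5 was at 0.21 and TRP1 at 0.010. With a library left out LYS5 lay between -0.23 and 0.077, TRP1 between -0.60 and 0.084 and HIS3 between -1.06 and 0.39. The shifts with total counts are those of the scale, which leaves out the TMM factors and moved the all-gene median from 0.01 to 0.30. The cause of the other shifts was not tested. Genes called over all genes were 4 higher and 18 lower without the block, 25 and 135 in DESeq2, 12 and 87 with no filter, and 37 and 109 with GC and length offsets, for which 5297 of 5680 genes had GC content. Counting error limits HIS3 and LYS5, with under 60 reads in every library.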

Other observations

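Amino acid genes outside the pathways above were mostly near 0. The list held 18 tested genes of serine, glycine, glutamate, glutamine, asparagine, proline, phenylalanine and tyrosine synthesis or transamination. Of these, 9 were above 0, 1 rose and none fell, with a median log2 fold change of -0.02. Among all genes tested 2.52% rose and 5.35% fell. The one that rose was ASN1, an asparagine synthetase gene (0.51 ± 0.13, edgeR adjusted p = 0.0205). It had 320, 663, 412 and 750 reads in haploid A, tetraploid A, haploid B and tetraploid B.

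Amino acid permeases and their sensor were mostly below 0. Of 13 genes, 2 were above 0, 1 rose and 3 fell, with a median of -0.22. Among all genes tested 51.1% were above 0, 2.52% rose and 5.35% fell. Those that fell were DIP5, the dicarboxylic amino acid permease (-0.70 ± 0.13, edgeR adjusted p = 0.00378), TAT2, a tryptophan permease (-0.43 ± 0.12, 0.0438), and SSY1, the sensor of external amino acids (-0.68 ± 0.19, 0.0453). AGP1, a permease of broad range on chromosome 3, rose (0.69 ± 0.15, edgeR adjusted p = 0.00961). It lay 0.43 above the median of that chromosome, which was 0.26.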
